A study of Homo sapiens with 30 samples.

Results

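The comparison described here set LNCaP cells rescued with wild-type mTOR (WT) against LNCaP cells rescued with an empty vector (EV), both under the androgen R1881. It used the 3 WT and 3 EV libraries under R1881, 6 of the 30 libraries of the study, across all genes. LNCaP is an established line from a lymph node metastasis of human prostate cancer that expresses the androgen receptor. All cells, EV included, carried an shRNA knockdown of mTOR, and the rescue construct came from an inducible system. Androgen was withheld for 48 h (RPMI, 2% charcoal-stripped serum), and the cells then received 10 nM R1881, a synthetic androgen, for 24 h. The same lines under ethanol vehicle (0.1%), 3 libraries each, gave a comparison with no shared library. Under R1881, 3 further rescue lines, again with 3 libraries each, were NES-mTOR (tagged with a nuclear export signal), NLS-mTOR (tagged with a nuclear localization signal) and NLSKD, the NLS form with the kinase-dead D2357E change. The sources used here do not say whether the 3 libraries of a group came from separate cultures or whether a line was 1 clone. The p-values therefore measure the spread between libraries within groups, estimated over all 30 libraries of the study. This spread may be technical, and the construct and any difference between clones cannot be told apart.

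mTOR is the kinase at the core of mTORC1 and mTORC2. These complexes read growth factors, amino acids and energy, and they control protein, lipid and nucleotide synthesis, autophagy and the AKT and SGK kinases. The androgen receptor is a ligand-activated transcription factor that sustains luminal prostate cells and most prostate cancers, with the kallikreins KLK2 and KLK3 (prostate-specific antigen) among its best known targets.

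Library totals of the 6 libraries ran from 23.9 to 28.7 M counts. Values are CPM (counts scaled to library size), differences are log2 fold changes of WT over EV with their standard error (SE), and a gene was called at an adjusted p under 0.05 over the 18296 genes tested of 58735. Replicates differed by more than sampling noise, with a chi-square per degree of freedom of 12.7 to 102 between libraries of a group. The first principal component (52.5% of the variance) separated WT from EV. The second (26.3%) set WT replicate 1 (31.0) apart from WT replicates 2 and 3 (-18.3 and -24.1). It spread EV replicates 1, 2 and 3 (27.9, -22.1 and 5.65). Mitochondrially encoded genes took 5.10%, 5.09% and 6.63% of counts in WT and 3.90%, 7.97% and 7.67% in EV. The 14 luminal prostate markers were all measured at 1 CPM or more, with sums of 10727 to 13093 CPM in WT and 13452 to 15870 CPM in EV. Of the 12 basal markers, KRT5, KRT17, TP63 and CAV1 were at 0, and the sums were 23.6 to 26.8 CPM in WT and 17.9 to 25.4 CPM in EV. Of the 11 immune and endothelial markers only VWF reached 1 CPM, PTPRC, CD3E, PECAM1, CDH5 and TEK were among those at 0, and the sums were 6.60 to 11.7 CPM in WT and 3.63 to 3.92 CPM in EV.

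MTOR (ENSG00000198793, chromosome 1, 11106535 to 11262507 on hg38), the gene that was knocked down and put back, had 1514, 1812 and 1479.6 CPM in WT and 68.8, 55.4 and 73.9 CPM in EV. Every WT library was far above every EV library (log2 fold change 4.6 ± 0.38, adjusted p = 3.92e-09). Reads of the construct and of the endogenous gene were not told apart. The other lines carried it as well, with log2 fold changes over the same EV libraries of 6.02 in NES, 3.97 in NLS and 4.03 in NLSKD, against 4.6 in WT. Of the 11 subunits of the mTOR complexes and their assembly factors, MTOR rose, and MAPKAP1, a subunit of mTORC2, and TTI1, an assembly factor of mTOR-type kinases, fell (log2 fold changes -0.35 ± 0.11 and -0.47 ± 0.15). The share called, MTOR included, was 27.3%, against 8.49% of all genes. MAPKAP1 missed the threshold without WT replicate 2 or 3 or EV replicate 1, 2 or 3 (adjusted p = 0.0840 to 0.141), and TTI1 did so without WT replicate 2 or 3 or EV replicate 1, 2 or 3 (adjusted p = 0.0516 to 0.205). Among 28 tested regulators upstream of the kinase, SESN1, a stress-induced inhibitor of amino acid signalling, rose by 0.70 ± 0.20 and RRAGA, a Rag GTPase, fell with a log2 fold change of -0.45 ± 0.13. That is 7.14% of the list, close to the 8.49% of all genes, so the count is no result about this group. SESN1 missed the threshold without WT replicate 1 or EV replicate 1, 2 or 3 (adjusted p = 0.0522 to 0.209), and RRAGA did so without WT replicate 1, 2 or 3 or EV replicate 1 or 2 (adjusted p = 0.0528 to 0.0899).

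In all, 669 genes were higher in WT (3.66% of those tested) and 884 were lower (4.83%), 8.49% together. The median log2 fold change was 1.17 among the genes called higher, -1.40 among those called lower and 0.03 over all genes tested. The lower genes also had the larger changes, with 308 lower and 155 higher by at least 4-fold, and 121 lower and 39 higher by at least 16-fold. The 3 WT and 3 EV libraries did not overlap for 656 of the 669 higher and 875 of the 884 lower genes, against 26.4% of all genes tested. With 1 library left out the count of higher genes was 427 to 514, and it was 427 without WT replicate 3, 434 without WT replicate 2 and 444 without EV replicate 3. In bulk RNA, fewer cells that express a gene and less RNA per cell cannot be told apart.

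**Figure D1:**
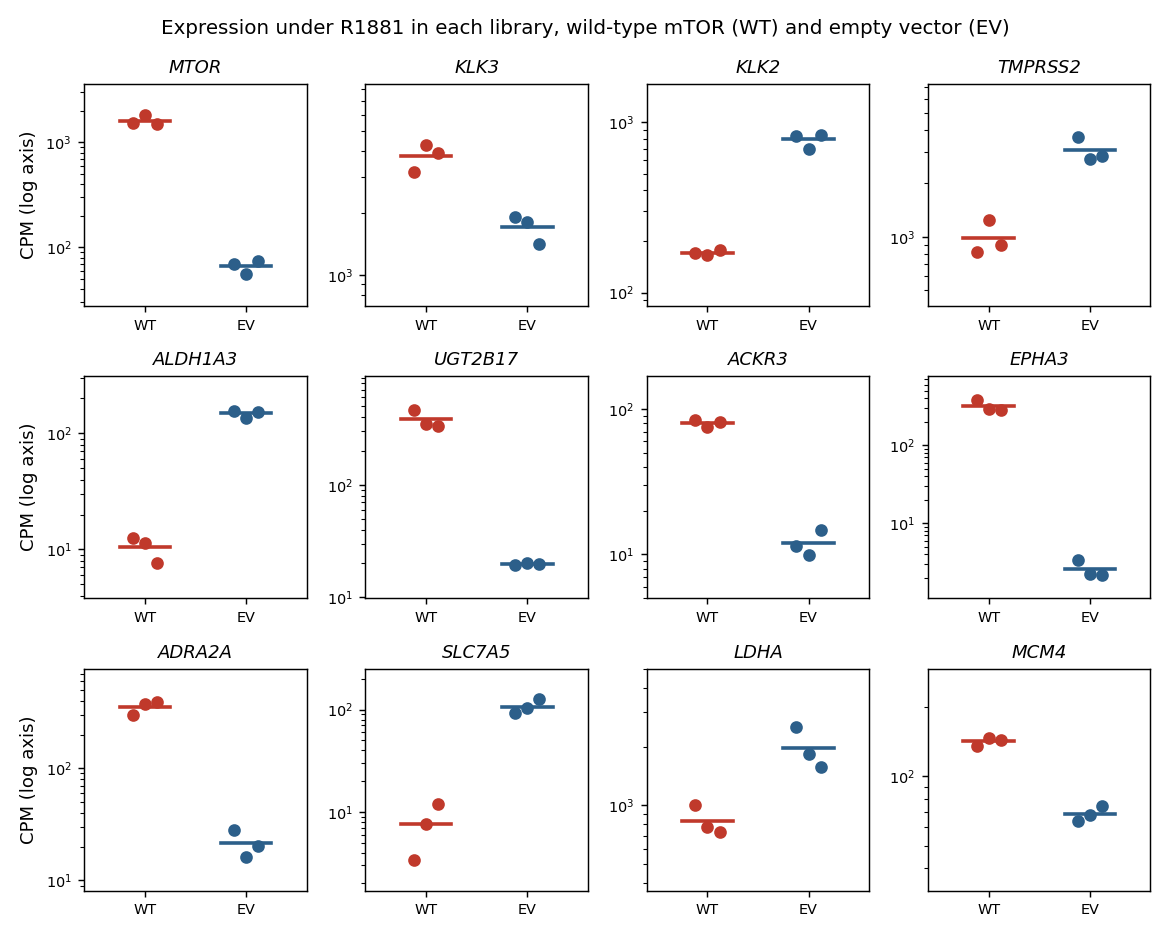
CPM on a log axis for 12 genes in each of the 3 WT libraries (left in each panel) and the 3 EV libraries (right) under R1881, with a bar at the group mean. MTOR, KLK3, UGT2B17, ACKR3, EPHA3, ADRA2A and MCM4 lay higher in WT, and KLK2, TMPRSS2, ALDH1A3, SLC7A5 and LDHA lay lower, with no overlap between the groups in any panel.

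The androgen response was the first question, because androgen was present in both lines. The kallikreins KLK2 and KLK3, neighbouring serine protease genes on chromosome 19 with closely related promoters, moved in opposite directions. KLK3 (ENSG00000142515, chromosome 19, 50854915 to 50860764) had 3163, 4259 and 3922 CPM in WT and 1908, 1816 and 1412 CPM in EV. All 3 WT libraries were above all 3 EV libraries (log2 fold change 1.14 ± 0.31, adjusted p = 0.0204). KLK3 missed the threshold without WT replicate 2 or 3 or EV replicate 2 or 3 (adjusted p = 0.0539 to 0.104). KLK2 (ENSG00000167751, chromosome 19, 50861568 to 50880567) had 169.9, 167 and 179 CPM in WT and 837, 702 and 845 CPM in EV. WT libraries were tightly grouped far below EV (log2 fold change -2.21 ± 0.25, adjusted p = 6.90e-07). Reads that match both genes could be counted for either, and how such reads were treated is not given in the sources used here. The 250 bases before each start, from the RefSeq table on GRCh38.p14, are shown because the pair share a known androgen receptor element and still differed in direction; capitals mark that element, and both are on the plus strand (KLK3 at chr19:50854665-50854914, KLK2 at chr19:50873189-50873438, whose RefSeq start lies inside the longer gene model of the count table).
KLK3: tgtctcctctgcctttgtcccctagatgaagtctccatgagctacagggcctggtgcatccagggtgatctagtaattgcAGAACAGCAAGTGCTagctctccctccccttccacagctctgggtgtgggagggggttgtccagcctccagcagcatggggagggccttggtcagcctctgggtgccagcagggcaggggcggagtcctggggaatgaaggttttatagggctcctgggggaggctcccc
KLK2: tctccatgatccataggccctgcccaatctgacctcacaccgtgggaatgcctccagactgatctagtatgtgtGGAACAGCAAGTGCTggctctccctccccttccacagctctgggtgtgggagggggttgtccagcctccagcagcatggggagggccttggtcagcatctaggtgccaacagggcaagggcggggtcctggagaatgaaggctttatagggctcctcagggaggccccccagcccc
The element began 170 bases before the start in KLK3 and 176 bases before it in KLK2. Its 15 bases differed by 1 substitution, A1G from KLK3 to KLK2, with positions counted from the element's 5′ end, and 206 of 240 aligned promoter bases were the same (85.8%). The letters AGAACA, searched on both strands, stood in the 250 bases before the start of 5.88% of the protein-coding genes higher in WT, 9.32% of those lower in WT and 7.58% of the 11103 tested protein-coding genes with a promoter in the table. The full palindrome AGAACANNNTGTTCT was in 0 of these windows. A match of letters is a description of the window and not a binding site.

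Of 56 tested genes known to be induced by androgen, 22 fell and 2 rose, against 4.83% and 3.66% of all genes tested. Their median log2 fold change was -0.66. The list was chosen with earlier results of these data known, so its own response to R1881 is a description and no check. In WT 52 of the 56 had a higher mean CPM with R1881 than with vehicle, and in EV 53 did. TMPRSS2, a membrane serine protease gene, had 819, 1243 and 895 CPM in WT and 3638, 2758 and 2845 CPM in EV. The groups were well apart (log2 fold change -1.64 ± 0.20, adjusted p = 2.44e-06), and TMPRSS2 lies on chromosome 21, whose genes were lower in WT than in EV as a whole (median -0.24). ALDH1A3, a retinaldehyde dehydrogenase, was 14.1-fold lower, with 12.6, 11.3 and 7.58 CPM in WT and 156, 137 and 153 CPM in EV (log2 fold change -3.82 ± 0.24, adjusted p = 5.77e-11). It lies on chromosome 15, where the median was -0.30. ACPP, which encodes prostatic acid phosphatase, had 28.6, 30.3 and 22.9 CPM in WT and 102, 64.8 and 94.9 CPM in EV (log2 fold change -1.68 ± 0.23, adjusted p = 1.34e-05). TSC22D3, or GILZ, a glucocorticoid and androgen target, had 31.8, 30.2 and 33.1 CPM in WT and 121, 117 and 137 CPM in EV (log2 fold change -1.98 ± 0.24, adjusted p = 1.85e-06). In each of these 4 genes the lowest EV library stood above the highest WT library. The other members that fell included ERRFI1, PPFIBP2, KCNN2, EAF2, STEAP4, BMPR1B, CAMKK2, NDRG1, ADAMTS1, CHRNA2, CENPN, SORD, TRPM8, DBI, TIPARP and PLPP1. The members that rose were KLK3 and SNAI2 (0.93), a transcriptional repressor. SNAI2 missed the threshold without WT replicate 1, 2 or 3 or EV replicate 2 or 3 (adjusted p = 0.0547 to 0.254). FKBP5, a co-chaperone and a known androgen target, had 1414, 1082 and 1002 CPM in WT and 1614, 948 and 1053 CPM in EV, and these ranges overlapped (log2 fold change -0.05 ± 0.23, adjusted p = 0.954). With 1 library left out, 16 to 21 members were called lower.

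Among 24 tested regulators of the androgen response and of prostate identity, the steroid receptor coactivator NCOA1, the zinc finger factor KLF5 and the glucocorticoid receptor gene NR3C1 rose, and KLF4 and CREB3L4 fell (20.8% called, against 8.49% of all genes). NR3C1 was near the detection limit, with 0.427, 0.733 and 0.356 CPM in WT and 0.0404, 0 and 0.128 CPM in EV. NCOA1 missed the threshold without any of the 6 (adjusted p = 0.0503 to 0.137), and KLF5 did so without any of the 6 (adjusted p = 0.0586 to 0.175). NR3C1 missed the threshold without WT replicate 2 or EV replicate 1 or 2 (adjusted p = 0.0673 to 0.0818), and KLF4 did so without WT replicate 2 or 3 or EV replicate 1 or 3 (adjusted p = 0.0573 to 0.115). CREB3L4 missed the threshold without WT replicate 1, 2 or 3 or EV replicate 1 or 2 (adjusted p = 0.0534 to 0.0941).

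Genes known to be repressed by androgen went mostly the other way. Of 18 tested, 9 rose and 1 (BLNK) fell, against 3.66% and 4.83% of all genes, with a median log2 fold change of 1.79. In WT 14 of the 18 had a lower mean CPM with R1881 than with vehicle, and in EV 15 did. UGT2B17, which glucuronidates androgens for excretion, had 464, 348 and 335 CPM in WT and 19.6, 20.3 and 19.8 CPM in EV (log2 fold change 4.26 ± 0.30, adjusted p = 2.81e-10). UGT2B15, its close relative, had 337, 124 and 138 CPM in WT and 10.4, 7.8 and 7.51 CPM in EV (log2 fold change 4.54 ± 0.53, adjusted p = 1.32e-06). WT replicate 1 was high for UGT2B15, and the lowest WT library was still far above EV. UGT2B10 and UGT2B11 also rose (1.93 ± 0.50 and 2.45 ± 0.66), so that 4 of 22 tested genes of steroid conjugation and metabolism rose (18.2%, against 3.66% of all genes) and none was called lower (0 by edgeR, 1 by DESeq2). UGT2B10 missed the threshold without WT replicate 1 or EV replicate 2 (adjusted p = 0.0788 to 0.118), and UGT2B11 did so without WT replicate 1 or EV replicate 2 or 3 (adjusted p = 0.100 to 0.161). The number that rose was 2 without WT replicate 1. Counts of this family of near-identical genes are uncertain, since reads can match several of them. PEG3, an imprinted zinc finger gene, had 219, 377 and 411 CPM in WT and 14.5, 12.8 and 21 CPM in EV (log2 fold change 4.38 ± 0.40, adjusted p = 1.95e-08). ACKR3, a scavenging receptor for the chemokine CXCL12, had 84.2, 75.8 and 81.9 CPM in WT and 11.4, 9.99 and 14.8 CPM in EV (log2 fold change 2.74 ± 0.26, adjusted p = 4.18e-08). DDC, aromatic amino acid decarboxylase, had 86, 122 and 97.8 CPM in WT and 14.5, 25.1 and 23 CPM in EV (log2 fold change 2.29 ± 0.24, adjusted p = 2.54e-07). OPRK1, the kappa opioid receptor, had 18.8, 19 and 17.2 CPM in WT and 3.47, 1.18 and 2.3 CPM in EV (log2 fold change 2.98 ± 0.35, adjusted p = 1.11e-06). The WT and EV libraries did not overlap in any of these genes. LRRN1 and BCHE were the remaining members that rose. DDC is also a neuroendocrine marker and made up most of the summed level of those 14 markers in WT, which was 96.7 to 138 CPM in WT and 35.3 to 48.0 CPM in EV, with INSM1, NEUROD1, FOXA2 and SRRM4 at 0.

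**Figure D2:**
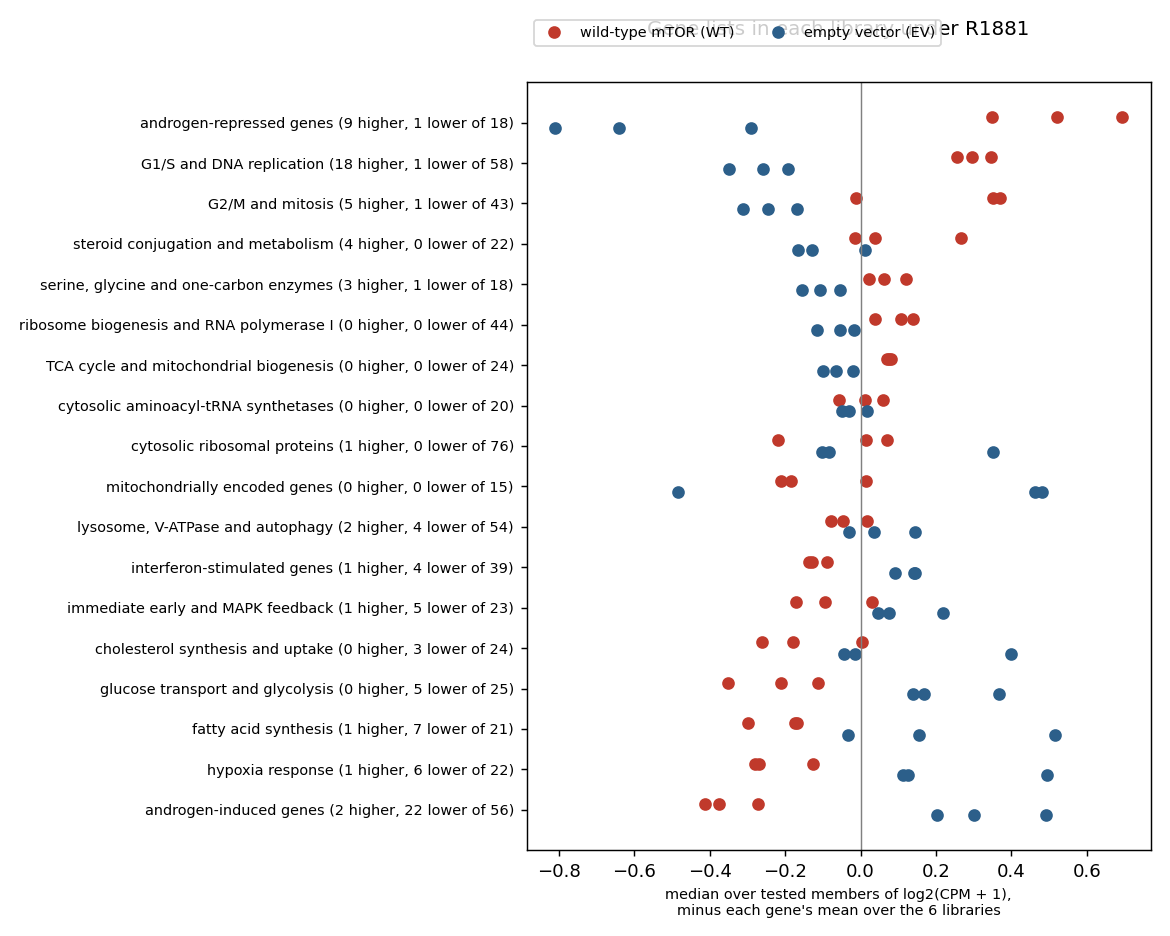
For 18 gene lists, the median over tested members of log2(CPM + 1) minus the gene's mean over the 6 libraries, 1 point per library under R1881. Androgen-repressed genes (0.35 to 0.69 in WT, -0.81 to -0.29 in EV) and replication genes (0.26 to 0.34 in WT, -0.35 to -0.19 in EV) lay higher in WT, and androgen-induced genes lay lower (-0.41 to -0.27 in WT, 0.20 to 0.49 in EV).

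Genes of the G1/S transition and of DNA replication were often higher in WT. Of 58 tested, 18 rose and 1 fell, against 3.66% and 4.83% of all genes, and the median log2 fold change was 0.63. They included most of the MCM helicase, the ring that unwinds DNA at replication forks. MCM4 had 135, 147 and 144 CPM in WT and 63.7, 68.1 and 74.7 CPM in EV (log2 fold change 1.04 ± 0.17, adjusted p = 1.22e-04). MCM6 had 104, 98.7 and 93.3 CPM in WT and 54.7, 59.8 and 57.6 CPM in EV (log2 fold change 0.78 ± 0.13, adjusted p = 2.40e-04). MCM3 had 79.1, 90.4 and 86.4 CPM in WT and 45, 56.1 and 48.6 CPM in EV (log2 fold change 0.77 ± 0.13, adjusted p = 3.08e-04). In each of these the 3 WT libraries lay clearly above the 3 EV libraries. MCM2 and MCM7 rose by similar amounts (1.11 and 0.94). MCM10, which helps to activate the helicase, had 28.2, 25.2 and 26.9 CPM in WT and 10.1, 9.68 and 12.2 CPM in EV (log2 fold change 1.33 ± 0.26, adjusted p = 9.50e-04). UHRF1, which keeps DNA methylation through replication, had 24.5, 35.8 and 41.9 CPM in WT and 12.8, 15.4 and 17.8 CPM in EV (log2 fold change 1.15 ± 0.25, adjusted p = 0.00286). The loading factors ORC1, ORC6 and CDC6, the sliding clamp PCNA, the clamp loader subunit RFC3, the GINS subunit GINS1, the polymerase delta subunit POLD3, MCM8, the kinase CDK6 and the transcription factors E2F2 and E2F8 also rose. GMNN, geminin, the inhibitor of origin licensing, was the member that fell, with 41.4, 35.8 and 33.9 CPM in WT and 58.6, 62.6 and 61.7 CPM in EV (log2 fold change -0.72 ± 0.17, adjusted p = 0.00644). With 1 library left out the number of members that rose was 10 to 14, with 10 without WT replicate 3 and 11 without EV replicate 1. Under vehicle the median was 0.17 and no member was called by edgeR (0 higher and 0 lower), although 7 were higher and 2 lower at an unadjusted p under 0.05, DESeq2 called 1 higher and limma called none. The difference between the treatments was called for 0 members by edgeR, DESeq2 or limma, with 13 larger under R1881 at an unadjusted p under 0.05, so a dependence on androgen was not shown for single genes.

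E2F factors drive many replication genes, so the 250 bases before the start were searched on both strands for TTTCGCGC and TTTGGCGC. A match was in 8 of the 49 replication genes with a promoter in the table (16.3%), against 1.71% of all tested protein-coding genes, 1.88% of those higher in WT and 0.965% of those lower. The promoters of MCM6 (chr2:135876444-135876693, minus strand) and MCM7 (chr7:100101398-100101647, minus strand) are shown as called members that hold such a match, from RefSeq on GRCh38.p14, with the matches in capitals.
MCM6: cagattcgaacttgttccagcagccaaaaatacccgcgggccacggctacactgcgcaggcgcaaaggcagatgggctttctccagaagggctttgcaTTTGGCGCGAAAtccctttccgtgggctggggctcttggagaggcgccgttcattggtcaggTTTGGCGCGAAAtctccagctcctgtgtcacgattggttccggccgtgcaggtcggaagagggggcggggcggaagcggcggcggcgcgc
MCM7: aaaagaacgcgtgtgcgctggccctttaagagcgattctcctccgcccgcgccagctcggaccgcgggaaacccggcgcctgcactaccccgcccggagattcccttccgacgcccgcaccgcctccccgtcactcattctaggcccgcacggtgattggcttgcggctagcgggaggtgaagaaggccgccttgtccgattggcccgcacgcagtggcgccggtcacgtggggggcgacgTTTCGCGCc
MCM6 held 4 overlapping matches in 2 places, which began 152, 148, 90 and 86 bases before the start. MCM7 held 1, which began 9 bases before it. MCM3, MCM2, ORC1 and PCNA rose as well and held none of these letters in this window, which says nothing about the factor. E2F2 rose and held a match, and E2F1, POLA1, POLE, CDC25A and POLA2 held a match and were not called.

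**Figure D3:**
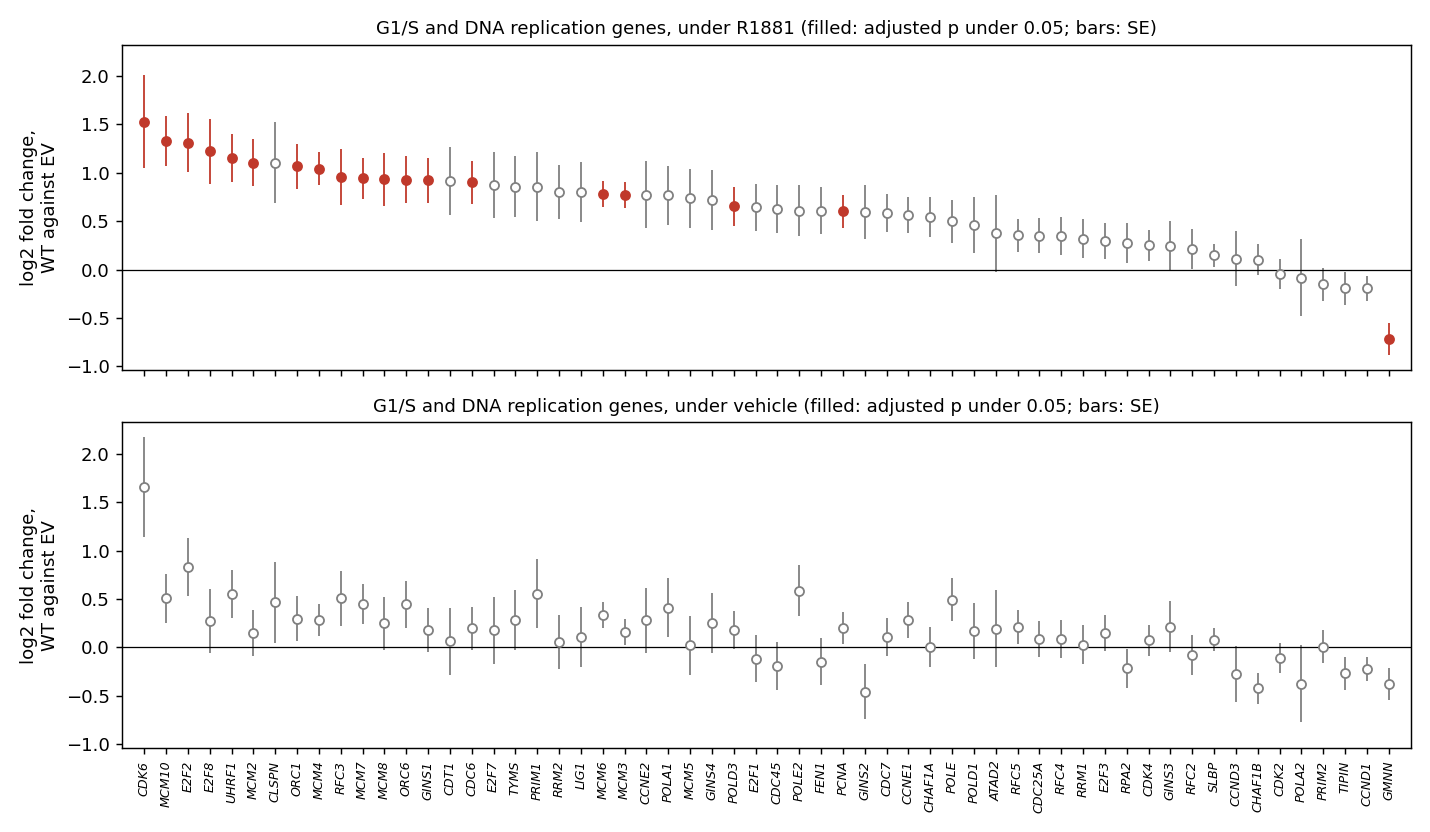
The log2 fold change of WT over EV, with its SE as bars, for the 58 tested G1/S and replication genes under R1881 (top) and under vehicle (bottom), filled where the adjusted p was under 0.05. The points lie mostly above 0 under R1881 (median 0.63) and closer to 0 under vehicle (median 0.17).

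Of 43 tested G2/M genes, 5 rose (CDK1, NDC80, KIF2C, CDC25B and MYBL2) and CENPN, a centromere protein that is also androgen-induced, fell, with a median of 0.58. The share called was 14%, against 8.49% of all genes. CDK1, the mitotic kinase, had 201, 150.3 and 173 CPM in WT and 92.4, 109.8 and 95.9 CPM in EV (log2 fold change 0.81 ± 0.20, adjusted p = 0.00869). CDK1 missed the threshold without WT replicate 1 (adjusted p = 0.0584). The number that rose was 1 without WT replicate 1 or 3 or EV replicate 1 or 3, 2 without WT replicate 2 and 3 without EV replicate 2. Of 19 CDK inhibitors and quiescence genes 2 fell (10.5%, against 4.83% of all genes). BTG1, an anti-proliferative gene, had 127, 128 and 118 CPM in WT and 389.7, 503 and 426 CPM in EV (log2 fold change -1.82 ± 0.21, adjusted p = 8.10e-07). CDKN1A, the p21 inhibitor, had a smaller change (log2 fold change -0.71 ± 0.20, adjusted p = 0.0246). CDKN1A missed the threshold without WT replicate 1 or 3 or EV replicate 1, 2 or 3 (adjusted p = 0.0540 to 0.106).

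Genes of glycolysis and of the hypoxia response that changed were nearly all lower in WT. Of 25 tested genes of glucose transport and glycolysis 5 fell and none was called higher (0 by edgeR and 0 by DESeq2), against 4.83% lower and 3.66% higher of all genes, with a median log2 fold change of -0.54. LDHA, lactate dehydrogenase A, had 1006, 771 and 729 CPM in WT and 2512, 1834 and 1567 CPM in EV (log2 fold change -1.24 ± 0.26, adjusted p = 0.00254). EV replicate 1 was the highest library and the WT values lay below all EV values. PGK1, PKM and PGAM1, 3 enzymes of the lower pathway, and PFKFB4, which makes the activator of phosphofructokinase, also fell (-0.87, -0.79, -0.45 and -0.97). PGK1 missed the threshold without EV replicate 1 (adjusted p = 0.0705), and PKM did so without WT replicate 1 or 3 or EV replicate 1 or 2 (adjusted p = 0.0543 to 0.0981). PGAM1 missed the threshold without WT replicate 1, 2 or 3 or EV replicate 1 or 3 (adjusted p = 0.0597 to 0.254), and PFKFB4 did so without WT replicate 1 or EV replicate 3 (adjusted p = 0.0843 to 0.100). The count was 2 without EV replicate 1 and 3 without WT replicate 1, WT replicate 3 or EV replicate 3. Of 22 hypoxia genes 6 fell and HILPDA, a lipid droplet protein, rose, which was not called without WT replicate 1, 2 or 3 or EV replicate 1 or 3. In all 31.8% of this list was called, against 8.49% of all genes. EGLN3, an oxygen-sensing prolyl hydroxylase, had 8.31, 9.22 and 8.22 CPM in WT and 27.7, 25.7 and 22 CPM in EV (log2 fold change -1.55 ± 0.18, adjusted p = 1.20e-06). BNIP3, a mitophagy receptor, had 360.2, 275 and 288 CPM in WT and 885, 555 and 618 CPM in EV (log2 fold change -1.16 ± 0.21, adjusted p = 3.81e-04). NDRG1, a stress-induced gene on both this list and the androgen-induced list, had 564, 418 and 443 CPM in WT and 1949.6, 964 and 1286 CPM in EV (log2 fold change -1.56 ± 0.32, adjusted p = 0.00198). In all 3 the WT libraries lay below the EV libraries, with EV replicate 1 the highest. The same lists had 5 and 6 members lower under vehicle, where no library was shared and 4.41% of all genes were called lower.

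Of 21 fatty acid synthesis genes 7 fell (SCD5, ACLY, ACSS2, ACSL1, ME1, FADS2 and ACACA) and ACACB, the acetyl-CoA carboxylase of the mitochondrial surface, rose, against 4.83% lower and 3.66% higher of all genes, with a median of -0.55. SCD5, a stearoyl-CoA desaturase, had 3.92, 2.89 and 2.14 CPM in WT and 27.6, 16.7 and 18.2 CPM in EV (log2 fold change -2.80 ± 0.39, adjusted p = 1.64e-05). ACLY, which makes cytosolic acetyl-CoA from citrate, had 618, 655 and 546 CPM in WT and 1393, 849 and 1097 CPM in EV (log2 fold change -0.88 ± 0.21, adjusted p = 0.00709). The list stood highest in EV replicate 1 (0.52, with -0.03 and 0.16 in the other EV libraries, and -0.30 to -0.17 in WT, as medians of log2(CPM + 1) around each gene's mean). The number that fell was 1 without EV replicate 1, 3 without WT replicate 3 and 4 without WT replicate 1. ACLY missed the threshold without EV replicate 1 (adjusted p = 0.0685), and ACSS2 did so without WT replicate 1 or EV replicate 1 (adjusted p = 0.0577 to 0.0915). ACSL1 missed the threshold without WT replicate 2 or 3 or EV replicate 1 (adjusted p = 0.0586 to 0.122). Of 24 genes of cholesterol synthesis and uptake 3 fell (12.5%, against 4.83% of all genes), INSIG1 and FDFT1 among them. INSIG1, which holds back SREBP processing, had 402, 314 and 252 CPM in WT and 898, 524 and 526 CPM in EV (log2 fold change -1.01 ± 0.29, adjusted p = 0.0277). INSIG1 missed the threshold without WT replicate 2 or 3 or EV replicate 1 (adjusted p = 0.0868 to 0.201), and FDFT1 did so without WT replicate 2 or 3 or EV replicate 1 (adjusted p = 0.0598 to 0.213).

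In the lists of ribosomes, translation, mitochondria and nucleotide synthesis, processes that mTORC1 is known to drive, few genes passed the test. Over all genes 8.49% were called. The fatty acid synthesis list above, another such process, had 38.1% called, mostly lower. Of 76 cytosolic ribosomal protein genes only RPL22 rose, with 388, 321 and 314 CPM in WT and 223, 239 and 202 CPM in EV (log2 fold change 0.63 ± 0.16, adjusted p = 0.0101), and the list's median was -0.10. RPL22 missed the threshold without WT replicate 1 or EV replicate 3 (adjusted p = 0.0624 to 0.0932). edgeR called 0 of 44 ribosome biogenesis and RNA polymerase I genes (4 higher and 1 lower at an unadjusted p under 0.05, 1 each by DESeq2, 0 and 1 by limma). Still, 36 of the 44 had a positive log2 fold change (median 0.14, against 0.03 over all genes). The list stood at 0.04 to 0.14 in WT and -0.12 to -0.02 in EV, as medians of log2(CPM + 1) around each gene's mean. Of 20 cytosolic aminoacyl-tRNA synthetases edgeR called 0 (1 higher and 0 lower at an unadjusted p under 0.05, 0 by DESeq2 and limma). It called 0 of 24 TCA cycle and mitochondrial biogenesis genes (3 higher and 0 lower at an unadjusted p under 0.05, 0 by DESeq2 and limma). Of these 24, 19 had a positive log2 fold change (median 0.07). On the same scale this list stood at 0.07 to 0.08 in WT and -0.10 to -0.02 in EV. Of 15 mitochondrially encoded genes 0 were called by any of the tools or at an unadjusted p under 0.05, and 1 was positive (median -0.31). Translation factors gave 2 higher genes of 47 (4.26%, close to the 3.66% of all genes). EIF5A2, the second isoform of the hypusinated elongation factor, had 31, 22.4 and 22.6 CPM in WT and 9.85, 7.8 and 6.14 CPM in EV (log2 fold change 1.68 ± 0.33, adjusted p = 0.00129). EEF1A2, the elongation factor isoform of muscle and neurons, had 810.1, 1357 and 1347 CPM in WT and 600.3, 685 and 542 CPM in EV (log2 fold change 0.94 ± 0.25, adjusted p = 0.0179). EEF1A2 missed the threshold without WT replicate 2 or 3 or EV replicate 1 or 3 (adjusted p = 0.0590 to 0.105). Among 30 genes of the pentose phosphate pathway and nucleotide synthesis, only PFAS, an enzyme of purine synthesis, rose. That is 3.33% of the list, close to the 3.66% of all genes, so the count is no result about this group. PFAS had 28.7, 47.7 and 47 CPM in WT and 17.1, 19.9 and 21.7 CPM in EV (log2 fold change 1.07 ± 0.19, adjusted p = 3.67e-04). Of the 30 genes 24 had a positive log2 fold change (median 0.17).

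Amino acid transport held a large single change. SLC7A5, the light chain of the LAT1 leucine transporter, had 3.38, 7.67 and 11.9 CPM in WT and 91.8, 104 and 126 CPM in EV. The gene was 14-fold lower in WT, with no overlap (log2 fold change -3.81 ± 0.31, adjusted p = 3.92e-09). Of 28 tested transporters SLC38A6 also fell and SLC1A4, SLC6A9 and SLC7A8 rose (17.9% called, against 8.49% of all genes). SLC1A4, a carrier of small neutral amino acids, had 28.8, 32.7 and 34.5 CPM in WT and 14.1, 8.85 and 16.6 CPM in EV (log2 fold change 1.28 ± 0.26, adjusted p = 0.00175). SLC38A6 missed the threshold without WT replicate 2 or 3 or EV replicate 1, 2 or 3 (adjusted p = 0.0580 to 0.159), and SLC6A9 did so without WT replicate 2 or 3 or EV replicate 1 or 2 (adjusted p = 0.101 to 0.228). SLC7A8 missed the threshold without WT replicate 1, 2 or 3 or EV replicate 2 or 3 (adjusted p = 0.0805 to 0.190). Of 18 enzymes of serine, glycine and one-carbon metabolism 3 rose (CTH, MTHFD1 and MTHFD1L) and 1 fell, 22.2% together, against 8.49% of all genes. CTH, cystathionine gamma-lyase, had 37.7, 28.3 and 35.1 CPM in WT and 22.7, 20.8 and 20.4 CPM in EV (log2 fold change 0.66 ± 0.16, adjusted p = 0.00883). CTH missed the threshold without WT replicate 1 (adjusted p = 0.0614), and MTHFD1 did so without WT replicate 1 or 2 or EV replicate 2 or 3 (adjusted p = 0.0519 to 0.0929). MTHFD1L missed the threshold without any of the 6 (adjusted p = 0.0859 to 0.265). SAT1, the enzyme that starts polyamine breakdown, had 106, 86.4 and 93.7 CPM in WT and 459.6, 532 and 415 CPM in EV (log2 fold change -2.30 ± 0.28, adjusted p = 1.79e-06). Of 54 lysosome, V-ATPase and autophagy genes NPC1 and MAP1LC3A rose and GABARAPL1, GABARAPL2, WIPI1 and NEU1 fell. That is 11.1% of the list, close to the 8.49% of all genes, so the count is no result about this group. NPC1, which exports cholesterol from lysosomes, had 193, 164 and 187 CPM in WT and 85.7, 69 and 96.9 CPM in EV (log2 fold change 1.11 ± 0.24, adjusted p = 0.00329). GABARAPL1, an autophagosome protein, had 41.3, 39.3 and 35.5 CPM in WT and 72.1, 60.7 and 63.6 CPM in EV (log2 fold change -0.76 ± 0.17, adjusted p = 0.00465). WIPI1 missed the threshold without WT replicate 1, 2 or 3 or EV replicate 1 or 2 (adjusted p = 0.0739 to 0.131), and NEU1 did so without any of the 6 (adjusted p = 0.0510 to 0.247). The number of these genes that rose was 1 without WT replicate 2 or 3 or EV replicate 1, 2 or 3, and the number that fell was 2 without WT replicate 2 or 3 or EV replicate 1 or 2. GDF15, a stress-induced cytokine on the integrated stress response and p53 lists, had 175, 366 and 313 CPM in WT and 863, 920.1 and 729.9 CPM in EV (log2 fold change -1.56 ± 0.32, adjusted p = 0.00202).

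Of 30 insulin, IGF and PI3K signalling genes 6 rose and IGF1R fell, 23.3% together, against 8.49% of all genes. IGF1R, the receptor of insulin-like growth factors, had 174, 186 and 176 CPM in WT and 320.0, 255 and 318 CPM in EV (log2 fold change -0.74 ± 0.17, adjusted p = 0.00487), and lies on chromosome 15. IGFBP2, a binding protein of these factors, had 92.4, 190.5 and 171 CPM in WT and 55.7, 74.2 and 56.3 CPM in EV (log2 fold change 1.29 ± 0.28, adjusted p = 0.00316). IGFBP3, another, had 9.43, 6.51 and 10.5 CPM in WT and 1.61, 3.07 and 2.69 CPM in EV (log2 fold change 1.84 ± 0.31, adjusted p = 1.75e-04). PIK3R1, the regulatory subunit p85 alpha of PI3K, had 297, 192 and 176 CPM in WT and 100.4, 82.6 and 98.6 CPM in EV (log2 fold change 1.24 ± 0.27, adjusted p = 0.00357). The groups did not overlap in these genes. GRB10, an adaptor that restrains the insulin receptor and is a substrate of mTORC1, had 234, 288 and 295 CPM in WT and 149, 104 and 165 CPM in EV (log2 fold change 0.97 ± 0.23, adjusted p = 0.00577). GRB14, a related adaptor, and SGK3, a kinase of the AKT family, completed the list. GRB10 missed the threshold without EV replicate 2 (adjusted p = 0.0539). The count was 3 without EV replicate 2. Of 23 immediate early and MAPK feedback genes 5 fell (PHLDA1, DUSP1, FOS, CYR61 and EGR1) and SPRY2 rose, against 4.83% lower and 3.66% higher of all genes. FOS, an AP-1 subunit, had 0.311, 0.259 and 0.142 CPM in WT and 2.26, 2.41 and 1.15 CPM in EV (log2 fold change -3.02 ± 0.53, adjusted p = 3.56e-04). PHLDA1 had 0.621, 0.948 and 1.21 CPM in WT and 3.71, 6.74 and 7.38 CPM in EV (log2 fold change -2.67 ± 0.30, adjusted p = 7.25e-07). DUSP1, a phosphatase of MAP kinases, had 18.9, 21.4 and 19.1 CPM in WT and 36.7, 29.7 and 37.6 CPM in EV (log2 fold change -0.81 ± 0.14, adjusted p = 2.72e-04). SPRY2, an inhibitor of receptor tyrosine kinase signalling, had 5.67, 6.89 and 4.49 CPM in WT and 2.06, 1.18 and 1.58 CPM in EV (log2 fold change 1.82 ± 0.27, adjusted p = 4.86e-05). FOS and PHLDA1 were at low levels, so their values rest on few counts.

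Eph receptors bind membrane-anchored ephrins on neighbouring cells. Of 19 tested genes of Eph receptors and ephrins together, 4 rose, against 3.66% of all genes, and all 4 were receptors. The list as a whole did not rise, with a median log2 fold change of -0.21 and 8 positive members. EPHA3 had 387, 294 and 280.3 CPM in WT and 3.35, 2.23 and 2.18 CPM in EV (log2 fold change 6.95 ± 0.60, adjusted p = 9.26e-09) and was 123-fold higher. EPHA2 had 4.5, 7.84 and 6.44 CPM in WT and 1.74, 1.45 and 1.49 CPM in EV (log2 fold change 2.00 ± 0.24, adjusted p = 2.44e-06). EPHA7 had 175, 93.5 and 88.1 CPM in WT and 18.4, 8.85 and 9.6 CPM in EV (log2 fold change 3.27 ± 0.57, adjusted p = 3.08e-04). The fourth was EPHB4 (1.22), and the same number was called with any single library left out. None was called lower by edgeR (0), with 1 lower by DESeq2.

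Of 26 TGF-beta and BMP genes ID2 and ID3 rose and BAMBI, INHBB, BMPR1B and TGFBR2 fell (23.1% called, against 8.49% of all genes). BAMBI, a pseudoreceptor that dampens TGF-beta signalling, had 5.74, 6.76 and 4.59 CPM in WT and 46, 44.2 and 48.5 CPM in EV (log2 fold change -3.02 ± 0.21, adjusted p = 3.25e-10). TGFBR2, the type II receptor, had 0 counts in the WT libraries and 1.05, 0.657 and 2.13 CPM in EV, at least 16.9-fold lower with 3 counts taken as the floor of the group's summed counts. ID3 missed the threshold without WT replicate 3 or EV replicate 1 or 3 (adjusted p = 0.0752 to 0.108). The number that rose was 0 without WT replicate 3, EV replicate 1 or EV replicate 3, and 1 without WT replicate 1 or EV replicate 2. Of 17 NOTCH genes LFNG and HES6 rose and NOTCH3, a receptor, fell, with 8.62, 16.5 and 10.6 CPM in WT and 65.3, 53 and 59.3 CPM in EV (log2 fold change -2.31 ± 0.26, adjusted p = 5.52e-07). The share called was 17.6% of this short list, against 8.49% of all genes. LFNG missed the threshold without WT replicate 2 or 3 or EV replicate 2 or 3 (adjusted p = 0.0832 to 0.111), and HES6 did so without WT replicate 2 or 3 or EV replicate 1, 2 or 3 (adjusted p = 0.0980 to 0.214). Of 39 interferon-stimulated genes 4 fell and OAS3 rose, 12.8% together, against 8.49% of all genes. IFITM2, which blocks virus entry, had 0.427, 0.302 and 0.641 CPM in WT and 26.6, 39.8 and 29.9 CPM in EV (log2 fold change -6.10 ± 0.60, adjusted p = 7.99e-08). IFITM3, a near-identical neighbour that can share its reads, had 19, 31.9 and 31.9 CPM in WT and 53.8, 98.3 and 66.8 CPM in EV (log2 fold change -1.40 ± 0.36, adjusted p = 0.0120). IFITM3 missed the threshold without WT replicate 1 or EV replicate 2 (adjusted p = 0.0722 to 0.0889), and OAS3 did so without EV replicate 2 (adjusted p = 0.0504). The number that fell was 2 without WT replicate 3.

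Genes of synaptic adhesion and ion channels, best known from neurons, changed in both directions. Of 27 tested synaptic adhesion genes 9 rose and 6 fell, of 34 potassium, sodium and calcium channels 6 rose and 9 fell, and of 16 protocadherins and cadherins 4 rose and 2 fell. The shares called were 55.6%, 44.1% and 37.5%, against 8.49% of all genes (3.66% higher, 4.83% lower). These lists were long before the filter (44, 73 and 34 genes), and members at low counts in all groups were not tested. A member nearly silent in 1 line could pass the filter through a group where it was high. This may raise the shares called, so they are not read as a result about these lists. SLITRK5, a synaptic adhesion protein, had 5.36, 5.73 and 5.09 CPM in WT and 0 counts in EV, at least 121-fold higher. CNTN5, a contactin, had 841 counts in WT and 3 in EV, a ratio of 259 with a 95% counting interval of 88.2 to 1256. CNTNAP4, a neurexin-like protein, had 0 counts in WT and 4.28, 4.64 and 5.76 CPM in EV, at least 109.9-fold lower. These were changes between almost no transcript and a clear level. SDK1, a homophilic adhesion protein, had 0.582, 0.172 and 0.427 CPM in WT and 38.3, 30.5 and 38.1 CPM in EV (log2 fold change -6.46 ± 0.64, adjusted p = 7.77e-08). PCDH7, a protocadherin, had 19, 21.2 and 21.8 CPM in WT and 3.27, 1.8 and 4.09 CPM in EV (log2 fold change 2.76 ± 0.33, adjusted p = 1.37e-06). KCND2, a voltage-gated potassium channel, had 14.9, 12.9 and 13.8 CPM in WT and 0.525, 0.219 and 0.384 CPM in EV (log2 fold change 5.18 ± 0.57, adjusted p = 4.89e-07). KCNJ3, a G protein-gated potassium channel, went the other way, with 0.699, 1.08 and 1.07 CPM in WT and 37.4, 23.6 and 36.3 CPM in EV (log2 fold change -5.09 ± 0.54, adjusted p = 2.70e-07). GRIK2, a kainate-type glutamate receptor subunit, had 42.3, 49.9 and 45.4 CPM in WT and 1.49, 0.613 and 1.36 CPM in EV (log2 fold change 5.30 ± 0.43, adjusted p = 3.42e-09). CACNA1H, a T-type calcium channel, had 18.7, 37.6 and 29 CPM in WT and 4.16, 2.32 and 2.22 CPM in EV (log2 fold change 3.29 ± 0.29, adjusted p = 1.16e-08). In each of these 6 genes the WT and EV libraries lay far apart. The number of synaptic adhesion genes that rose was 5 without WT replicate 2, WT replicate 3 or EV replicate 2, and the number that fell was 3 without WT replicate 3 or EV replicate 3. That of cadherins that fell was 1 without WT replicate 1 or 2.

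The highest fold changes among protein-coding genes with a mean of at least 5 CPM belonged to CNTN5, EPHA3, GRIK2, KCND2, MTOR, UGT2B15, PEG3, UGT2B17, SLC22A10, SLITRK6, ADRA2A and KLF7. ADRA2A, the alpha-2A adrenergic receptor, had 302, 377 and 387 CPM in WT and 28.3, 16.2 and 20.5 CPM in EV (log2 fold change 4.04 ± 0.32, adjusted p = 2.71e-09). SLC22A10, of the organic anion transporter family, had 21.5, 25.3 and 18.9 CPM in WT and 0.484, 1.31 and 1.88 CPM in EV (log2 fold change 4.16 ± 0.33, adjusted p = 2.71e-09). KLF7, a zinc finger factor, had 17.2, 12.5 and 13 CPM in WT and 0.848, 0.657 and 1.19 CPM in EV (log2 fold change 3.98 ± 0.32, adjusted p = 3.42e-09). All 3 were low but detected in EV. The lowest fold changes belonged to NOVA1, SDK1, RFX6, IFITM2, BAG2, FAM110B, ZNF608, ECHDC1, KCNJ3, SLC44A4, GUCY1B1 and LARP6. NOVA1, a splicing regulator of neurons, had 0.272, 0.129 and 0.107 CPM in WT and 18.1, 17.5 and 17.2 CPM in EV (log2 fold change -6.66 ± 0.43, adjusted p = 1.07e-10). RFX6, a transcription factor of pancreatic endocrine cells, had 0.815, 0.603 and 0.712 CPM in WT and 51.1, 50.02 and 76.2 CPM in EV (log2 fold change -6.37 ± 0.45, adjusted p = 3.39e-10). BAG2, a co-chaperone of HSP70, had 0.311, 0.474 and 0.676 CPM in WT and 25.6, 32.8 and 33 CPM in EV (log2 fold change -5.94 ± 0.52, adjusted p = 1.16e-08). These were nearly silent in WT. ECHDC1, which clears a side product of acetyl-CoA carboxylase, had 0.505, 0.345 and 0.249 CPM in WT and 12.1, 12.7 and 13.4 CPM in EV (log2 fold change -5.11 ± 0.31, adjusted p = 4.12e-11). SLC44A4, a choline-like and thiamine pyrophosphate transporter, had 2.64, 5.13 and 5.45 CPM in WT and 117, 139.9 and 138 CPM in EV (log2 fold change -4.90 ± 0.29, adjusted p = 4.12e-11).

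Measured in CPM rather than in fold, the largest gains among protein-coding genes were those of KLK3, MTOR, EEF1A2, CPNE3, ASPH and ADGRG6, and the largest losses included those of TMPRSS2, LDHA, NDRG1, NCAPD3 and LIMCH1. ASPH, which hydroxylates aspartate and asparagine in EGF-like domains, had 858, 567 and 546 CPM in WT and 146, 111 and 141 CPM in EV (log2 fold change 2.31 ± 0.40, adjusted p = 3.14e-04). ADGRG6, an adhesion G protein-coupled receptor, had 1760.2, 1381 and 1267 CPM in WT and 434, 238 and 389.6 CPM in EV (log2 fold change 2.06 ± 0.41, adjusted p = 0.00150). LIMCH1, an activator of non-muscle myosin, had 637, 475 and 451 CPM in WT and 1686, 1183 and 1441 CPM in EV (log2 fold change -1.46 ± 0.21, adjusted p = 2.16e-05). NCAPD3, a condensin II subunit, had 908, 689 and 628 CPM in WT and 2199.9, 1126 and 1328 CPM in EV (log2 fold change -1.06 ± 0.29, adjusted p = 0.0208). In all 4 the WT and EV libraries did not overlap. CPNE3 missed the threshold without WT replicate 1 or 2 or EV replicate 1, 2 or 3 (adjusted p = 0.0566 to 0.134), and NCAPD3 did so without WT replicate 2 or 3 or EV replicate 1 (adjusted p = 0.0797 to 0.180).

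Among 1212 tested long intergenic noncoding RNAs 50 rose and 42 fell (4.13% and 3.47%), close to the 3.66% and 4.83% of all genes, so these counts are no result about the class. COLCA1, annotated as antisense, had 12.3, 14.5 and 7.16 CPM in WT and 216, 254 and 354 CPM in EV (log2 fold change -4.60 ± 0.30, adjusted p = 1.19e-10), and without a stated strand setting its reads cannot be told from those of its partner. LINC00161 had 1.94, 0.819 and 0.819 CPM in WT and 9.12, 15 and 13.6 CPM in EV (log2 fold change -3.39 ± 0.31, adjusted p = 1.95e-08), and AL162582.1 had 12.8, 11.5 and 8.83 CPM in WT and 1.53, 0.307 and 0.469 CPM in EV (log2 fold change 3.82 ± 0.48, adjusted p = 3.92e-06). Of 17 prostate cancer long noncoding RNAs CRNDE rose and PCAT1, PCAT7 and PCA3 fell (23.5% called, against 8.49% of all genes). PCAT1 had 10.9, 7.8 and 7.94 CPM in WT and 21.2, 17.3 and 16 CPM in EV (log2 fold change -1.03 ± 0.20, adjusted p = 8.47e-04). CRNDE missed the threshold without WT replicate 1 or 3 or EV replicate 1 or 3 (adjusted p = 0.0710 to 0.136), and PCAT7 did so without WT replicate 3 or EV replicate 1 or 3 (adjusted p = 0.0544 to 0.115). PCA3 missed the threshold without WT replicate 1, 2 or 3 or EV replicate 1 or 3 (adjusted p = 0.0955 to 0.167). Of 14 cancer testis antigens MAGEA1, MAGEC1 and MAGEC2 fell (21.4%, against 4.83% of all genes). MAGEA1, a cancer testis antigen of the X chromosome, had 7.45, 5.95 and 5.63 CPM in WT and 42.9, 40.5 and 43.2 CPM in EV (log2 fold change -2.73 ± 0.19, adjusted p = 2.35e-10). MAGEC2 had 1.4, 1.51 and 1.78 CPM in WT and 12.7, 11.2 and 14.6 CPM in EV (log2 fold change -3.03 ± 0.23, adjusted p = 1.23e-09), and its reads may be shared with MAGEC1. MAGEC1 missed the threshold without any of the 6 (adjusted p = 0.0505 to 0.0738). Among 16 mesenchymal markers, 9 of them tested, VIM, TWIST1 and SNAI2 rose (33.3% of those tested, against 3.66% of all genes). With 1 library left out 1 to 2 markers rose. The markers did not all go 1 way, with log2 fold changes from -2.02 to 2.22 and 7 of the 9 positive. None was called lower by edgeR (0), with 1 lower by DESeq2 and 1 by edgeR without WT replicate 1. The summed level of all 16 mesenchymal markers was 239 to 284 CPM in WT and 148 to 204 CPM in EV, mostly FN1, with CDH2, COL1A2 and DCN at 0. VIM, vimentin, had 24.1, 21.4 and 21.5 CPM in WT and 4.24, 5.82 and 4.31 CPM in EV (log2 fold change 2.22 ± 0.28, adjusted p = 4.02e-06). TWIST1 missed the threshold without WT replicate 2 or 3 or EV replicate 1 or 3 (adjusted p = 0.0556 to 0.153).

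The same comparison under vehicle called 421 genes higher and 807 lower in WT (2.3% and 4.41% of those tested, 6.71% together). Of the genes called higher under R1881, 275 were also called higher under vehicle (41.1% of the 669 and 65.3% of the 421), and of those called lower 535 were (60.5% of the 884 and 66.3% of the 807). No gene was called in opposite directions (0 by edgeR, DESeq2 and limma), with 16 at an unadjusted p under 0.05 in both. Of the 1553 genes called under R1881, 1495 had the same sign under vehicle (96.3%), and the median ratio of the vehicle to the R1881 log2 fold change was 0.75. Over all genes tested the correlation of the 2 sets of log2 fold changes was 0.67 (Pearson's r, across genes, which are not independent). Genes with alike differences included ALDH1A3 (-3.82 under R1881, -3.40 under vehicle), EPHA3 (6.95 and 5.74), SLC7A5 (-3.81 and -3.07) and LDHA (-1.24 and -1.24). The androgen-induced list had 1 higher and 14 lower members under vehicle, against 2.3% and 4.41% of all genes, with a median of -0.36, and the androgen-repressed list had 5 higher and 2 lower with a median of 0.70.

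**Figure D4:**
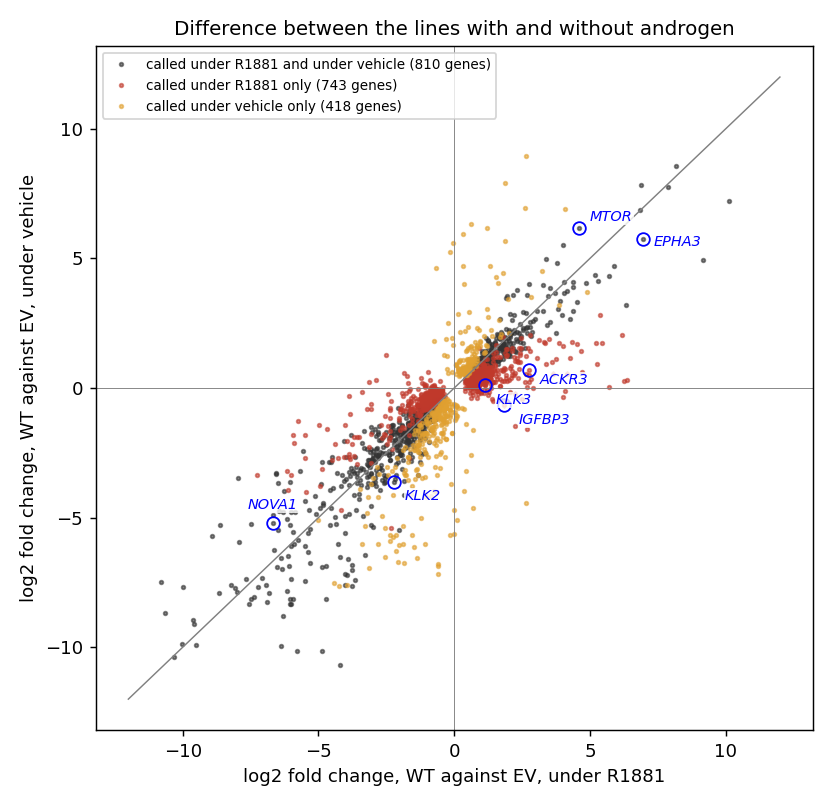
The log2 fold change of WT over EV under R1881 (horizontal) against that under vehicle (vertical) for every gene called in either, 810 in both, 743 under R1881 only and 418 under vehicle only. The points follow a rising diagonal, and none of those called in both lies in an off-diagonal quadrant.

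The difference between the treatments was tested as an interaction. It was called for 8 genes (0.0437% of those tested). A more positive WT difference under R1881 was called for 6 (0.0328%), among them IGFBP3, BCL11B, ACKR3, MEIS1 and KCNN2, and a more negative one for 2 (0.0109%), SOCS2 and CRISPLD2. For ACKR3 the vehicle values were 254, 231 and 212 CPM in WT and 159, 122 and 148 CPM in EV, so that R1881 lowered the level further in EV than in WT (interaction 2.04 ± 0.35, adjusted p = 0.0142). KLK3 had a log2 fold change of 1.14 under R1881 and 0.10 under vehicle, and KLK2 had -2.21 and -3.60, with no call on the difference (adjusted p = 1.0 and 0.303). With 1 library left out the number called was 1 to 8.

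WT was also set against the mean of the NES, NLS and NLSKD lines under R1881. This called 56 genes higher and 100 lower in WT (0.306% and 0.547% of those tested, 0.853% together). The comparison used the same WT libraries as the one with EV, so only its own values are given. NOVA1 was -5.0 on the log2 scale against those lines (adjusted p = 2.77e-08), EPHA3 was 2.21 (adjusted p = 4.76e-04) and MAGEA1 was -1.62 (adjusted p = 1.31e-06). KLK2 was -1.10 (adjusted p = 0.00516) and KLK3 was -0.05 (adjusted p = 0.986). Against EV, the log2 fold change of KLK2 was -2.21 for WT, -1.61 for NLS, -1.61 for NLSKD and -0.12 for NES. That of KLK3 was 1.14 for WT, 1.08 for NLS, 0.89 for NLSKD and 1.6 for NES. The values against EV share their EV libraries. Without WT replicate 1, 2 or 3 the count called in either direction was 78, 83 and 79, against 156 with all libraries.

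Genes called lower were unevenly placed in the genome. On chromosomes 9, 15 and 21 the median log2 fold change of genes with at least 5 CPM was -0.31, -0.30 and -0.24, and 83.3%, 78.8% and 67.0% of these genes had a negative value. These chromosomes, chosen after their values were seen, held 8.59% of the genes tested and 20.6% of those called lower. There 24 genes were higher and 182 lower, so 11.6% were called lower, against 4.20% of the genes elsewhere. All 3 WT libraries lay below all 3 EV libraries on each of the 3 chromosomes, under R1881 and under vehicle. The NES, NLS and NLSKD lines, over both treatments, also lay below every EV library on chromosome 15 (-0.29 to 0.07, with 0.11 to 0.33 in EV under vehicle and 0.20 to 0.30 under R1881) and on chromosome 21 (-0.15 to 0.04, with 0.13 to 0.21 and 0.19 to 0.22 in EV), so there EV stood apart from all 4 other lines. On chromosome 9 the NLS and NLSKD libraries lay below EV (-0.12 to 0.03), and the NES libraries reached EV levels (0.08 to 0.19). TMPRSS2, ABCG1 and LINC00161 lie on chromosome 21, ALDH1A3, LARP6, PKM, B2M, IGF1R and PDIA3 on chromosome 15, and RRAGA, MAPKAP1, KLF4, GRIN3A, PCA3 and PCAT7 on chromosome 9. The part of this shift in their differences was not tested. With these chromosomes left out of the fit, 551 genes were higher and 726 lower of 16725, and the androgen-induced list had 20 lower members and the replication list 14 higher. Smaller shifts went the other way. On chromosomes 1, 7, 8 and 13 all WT libraries lay above all EV libraries under R1881 (medians 0.04, 0.09, 0.10 and 0.16). Under vehicle this held for chromosome 7 only among them. On chromosome 13, 7.5% of the genes tested were called higher, against 3.66% of all genes.

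**Figure D5:**
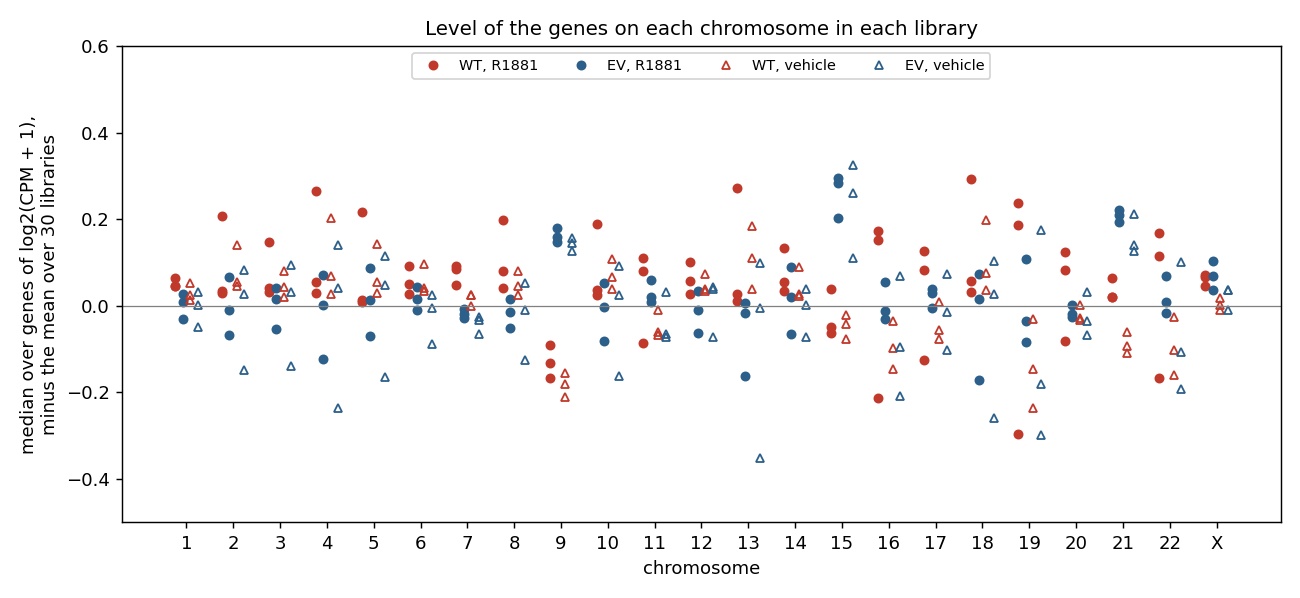
For each chromosome, the median over its genes of the log2 level relative to each gene's mean, 1 point per library, for WT and EV under R1881 and under vehicle. On chromosomes 9, 15 and 21 the WT points lie below the EV points (on chromosome 9, -0.17 to -0.09 in WT and 0.15 to 0.18 in EV under R1881), and on chromosome 19 WT replicate 1 stands apart (-0.30, against 0.24 and 0.19 in the other WT libraries).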

How the data were processed

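Per the labels' protocols, total RNA gave paired-end reads, 150 bases long. For each of 30 libraries the authors deposited a table of 58735 genes with raw read counts and FPKM values (counts per gene length and depth). HISAT2 2.0.5, featureCounts 1.5.0-p3 and hg38 are named in the submitters' processing notes. How strand and multiply matching reads were handled is not given in the sources used here, so near-identical, overlapping and antisense genes are uncertain. edgeR 4.0.16 in R 4.3.3 (filterByExpr, TMM, glmQLFit, glmQLFTest, two-sided) was fitted to the counts of all 30 libraries with 10 group means. It tested 18296 genes, and 40439 were not tested. Benjamini-Hochberg adjusted p under 0.05 was a call. CPM used TMM factors. The method was tested on simulated counts drawn independently for each library, so spread shared by libraries of the same replicate number was not covered. DESeq2 1.42.0 on counts and limma 3.58.1 on log2(FPKM + 1) and log2(FPKM + 0.1) were alternatives.

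Members and the 49 gene lists (1248 tested entries) were chosen with earlier results of these data known. The 183 genes chosen to be named comprised the top 12 protein-coding calls by fold in each direction (mean of at least 5 CPM, groups not overlapping), the 6 largest CPM differences each way, 4 each way of other biotypes, up to 5 members per list by adjusted p, MTOR, KLK3, KLK2, FKBP5 and TMPRSS2, and up to 4 each way by interaction. Further list members are named beside their counts. A few genes of these sets are not reported here. Against a group with 0 counts a fold is a bound at 3 counts, and intervals cover counting error only. Promoters were matched by symbol or synonym for 82.3% of tested protein-coding genes.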

Additional observations from a re-analysis of the deposited data

Results flagged for a closer look

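For 8 genes the difference between WT and EV was not the same under R1881 as under vehicle, by edgeR's test of the interaction. The interaction is the log2 fold change under R1881 minus that under vehicle. IGFBP3 had an interaction of 2.51 ± 0.43 (adjusted p = 0.0142), with 9.43, 6.51 and 10.5 CPM in WT and 1.61, 3.07 and 2.69 CPM in EV under R1881 and 3.39, 3.86 and 3.96 CPM in WT and 4.5, 6.15 and 7.22 CPM in EV under vehicle. BCL11B, a zinc finger factor, had 2.42 ± 0.47 (adjusted p = 0.0482), with 4.35, 3.58 and 4.63 CPM in WT and 1.01, 0.788 and 1.49 CPM in EV under R1881 and 4.17, 2.26 and 2.63 CPM in WT and 6.15, 2.85 and 3.77 CPM in EV under vehicle. In both the WT libraries lay above EV under R1881. Under vehicle IGFBP3 lay below EV in WT, and the BCL11B ranges overlapped. ACKR3 had 2.04 ± 0.35 (adjusted p = 0.0142). MEIS1, a homeobox gene, had 1.82 ± 0.35 (adjusted p = 0.0482), with 22.7, 13.7 and 25.2 CPM in WT and 6.5, 7.93 and 9.0 CPM in EV under R1881 and 4.09, 5.26 and 7.34 CPM in WT and 6.0, 6.71 and 9.68 CPM in EV under vehicle. KCNN2, a calcium-activated potassium channel, had 1.43 ± 0.24 (adjusted p = 0.0142), with 196, 215 and 236 CPM in WT and 478, 408 and 488 CPM in EV under R1881 and 37.2, 29.5 and 24.1 CPM in WT and 169, 149 and 202 CPM in EV under vehicle. SOCS2, an inhibitor of cytokine signalling, had -1.51 ± 0.26 (adjusted p = 0.0172), with 64.2, 47.9 and 43.8 CPM in WT and 72.5, 57.5 and 59.2 CPM in EV under R1881 and 21.4, 19.7 and 18.5 CPM in WT and 8.96, 7.92 and 8.57 CPM in EV under vehicle. CRISPLD2, a secreted protein, had -2.20 ± 0.33 (adjusted p = 0.00789), with 22.9, 18 and 19.7 CPM in WT and 34.1, 21.6 and 18.6 CPM in EV under R1881 and 14.1, 14.8 and 17.1 CPM in WT and 3.73, 4.02 and 4.51 CPM in EV under vehicle. SOCS2 and CRISPLD2 were higher in WT under vehicle, and under R1881 their ranges overlapped between the lines. Without EV replicate 1 under R1881 or WT replicate 3 under vehicle, 1 gene was called.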

How the results depend on the processing

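No named gene changed direction between the main run and an alternative where either run called it. Counts were compared in size only. Genes without a call could change sign, as FKBP5 did (log2 fold change -0.24 to 0.22 over the alternatives). The higher genes (669) and lower genes (884) numbered 1281 and 1344 with a replicate block, 342 and 527 at an adjusted p under 0.01, and 427 to 514 and 608 to 730 with 1 library left out. The vehicle calls (1228) were 2058 with the block, 703 at 0.01 and 829 to 1051 with 1 library left out. The interaction calls (8) were 24 with no filter, 22 with DESeq2, 100 and 20 with limma on log2(FPKM + 1) and log2(FPKM + 0.1), 2 with only the libraries compared, 22 with the block, 1 at 0.01 and 1 to 8 with 1 library left out. The calls against the other rescue lines (156) were 257 with DESeq2, 66 with only the libraries compared, 327 with the block, 79 at 0.01 and 78 to 186 with 1 library left out. Genes called alike under both treatments (810) were 1317 with the block, 482 at 0.01 and 619 to 698 with 1 library left out. The list calls (200) were 325 with the block, 116 at 0.01 and 128 to 164 with 1 library left out. Of the 183 named genes 168 were called, and 123 to 134 were with 1 library left out. The cause of these moves was not tested, beyond the smaller number of libraries where some were left out.

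The labels do not say what a replicate number shares. Deviations from the group means correlated at 0.40, 0.21 and 0.05 between same-numbered WT and EV libraries, and WT replicate 3 correlated best with EV replicate 2 (0.44), so the replicate block was kept as an alternative. Over all pairs of the 10 groups same-numbered libraries correlated at a median of 0.33 (-0.50 to 0.85), with 103 of 135 over 0.1, a hint from the data that part of the spread goes with the number. With the block 35 replication genes (18 without it) and 17 G2/M genes (5) were called higher, and 33 androgen-induced genes (22) lower. DESeq2 called 807 higher and 1180 lower, and limma 543 and 1042 or 587 and 1023. Of the calls 43.1% were higher with TMM, 38.6% with RLE, 42.8% with upper quartile factors and 48.4% with library totals alone.

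At 23.9 to 28.7 M counts per library, genes of few counts carried the widest errors, and fold changes against groups with 0 to 3 counts are bounds or counting ratios. With 3 libraries a group, small differences could be missed, and a gene without a call is not shown to be unchanged. Genes on chromosomes 9, 15 and 21 lay lower in WT than in EV, on chromosomes 15 and 21 with EV above all other lines, and fitted without them 551 genes were higher and 726 lower (an alternative added after seeing the data).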
